A study of Mus musculus with 10 samples.

Results

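The vascular endothelial growth factor (VEGF) family was described here as 10 genes, the 5 ligand genes Vegfa, Vegfb, Vegfc, Vegfd and Pgf, the 3 receptor genes Kdr, Flt1 and Flt4, and the 2 neuropilin genes Nrp1 and Nrp2. They were found by gene symbol among the 55385 gene identifiers of the count table, and all 10 were present and passed the filter on low counts. RNA sequencing had been carried out on endothelial cells sorted from mouse lungs. The libraries labelled EC-TRAIL KO (n = 5) came from mice with loxP-flanked Tnfsf10 on both alleles (Tnfsf10 L/L) and the Cdh5.iCreERT2 transgene (Cdh5.Cre Tg/W). The controls (n = 5) were Tnfsf10 L/L without the transgene (Cdh5.Cre W/W). Tnfsf10 encodes TRAIL, a death ligand of the TNF family, and the Cdh5 promoter drives the tamoxifen-inducible Cre in endothelium of all organs. Per the labels, mice of both groups were 8 to 14 weeks old, and tamoxifen was injected at 1 mg per mouse and day for 5 or 10 days, without a statement of which library had which. The controls lack the transgene, so the presence of Cre and the deletion cannot be told apart. The labels do not state that each library came from its own mouse, and p-values therefore measure the spread between these libraries, which may be technical.

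VEGF ligands are secreted dimers that act on receptor tyrosine kinases of the endothelial surface. VEGF-A signals for growth, survival and permeability through VEGFR-2, the product of Kdr, while VEGFR-1, the product of Flt1, binds VEGF-A, VEGF-B and placental growth factor (Pgf) and takes up VEGF-A as a decoy. VEGF-C and VEGF-D bind VEGFR-3, the product of Flt4, which is known for its part in lymphatic growth. Neuropilins are co-receptors without kinase activity that bind VEGF and class 3 semaphorins. In the adult mouse lung, alveolar type I cells are a known source of VEGF-A for the capillaries beside them.

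Library totals ran from 29806083 to 34702571 expected counts in libraries labelled EC-TRAIL KO and from 34435835 to 56897822 in controls. Tnfsf10, the targeted gene, had 199, 318, 126, 169 and 80.99 CPM (counts scaled by library size) in libraries labelled EC-TRAIL KO, replicates 1 to 5, and 374, 369.5, 298, 323 and 305 CPM in controls. Replicate 2 labelled EC-TRAIL KO lay within the control range, and the other 4 lay below it. The log2 fold change of Tnfsf10 was -0.90 (edgeR adjusted p = 0.425), and -1.21 without that replicate (edgeR adjusted p = 0.0345). Leaving out the library with the most Tnfsf10 of its group favours a pass. With all 10 libraries and the mean of fibroblast and pericyte markers as a covariate, the log2 fold change of Tnfsf10 was -1.43 (edgeR adjusted p = 0.0182). Tnfsf10 did not pass in the other 20 of 22 alternative fits. The series' design text speaks of 5 control and 4 transgenic animals. The labels number 5 libraries of each genotype without a count of animals. Numbers of animals and libraries are thus equal for controls and differ for the transgenic genotype. All 10 libraries were used. Endothelial genes were abundant, with 9 pan-endothelial markers summing to 12209 to 13176 CPM in libraries labelled EC-TRAIL KO and 11547 to 13694 CPM in controls. Markers of other lung cells were present too. The 14 alveolar epithelial markers summed to 8034 to 11434 CPM in libraries labelled EC-TRAIL KO and 9515 to 14211 CPM in controls. In these bulk libraries, fewer cells of a type and less RNA per cell cannot be told apart.

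The genes of the family differed far more from each other than between the groups. Levels of different genes were compared per length, as CPM per kb of annotated exon. Vegfa was the most abundant, with 242 ± 39.7 CPM per kb in libraries labelled EC-TRAIL KO and 262 ± 6.25 CPM per kb in controls (SD, n = 5 each). It exceeded 99.4% of the tested genes on this scale. Kdr came second, with 134 ± 35.1 CPM per kb in libraries labelled EC-TRAIL KO and 144 ± 17.97 CPM per kb in controls. Vegfa was above Kdr in 10 of 10 libraries, although the ranges of the 2 genes over all libraries overlapped.

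**Figure D1:**
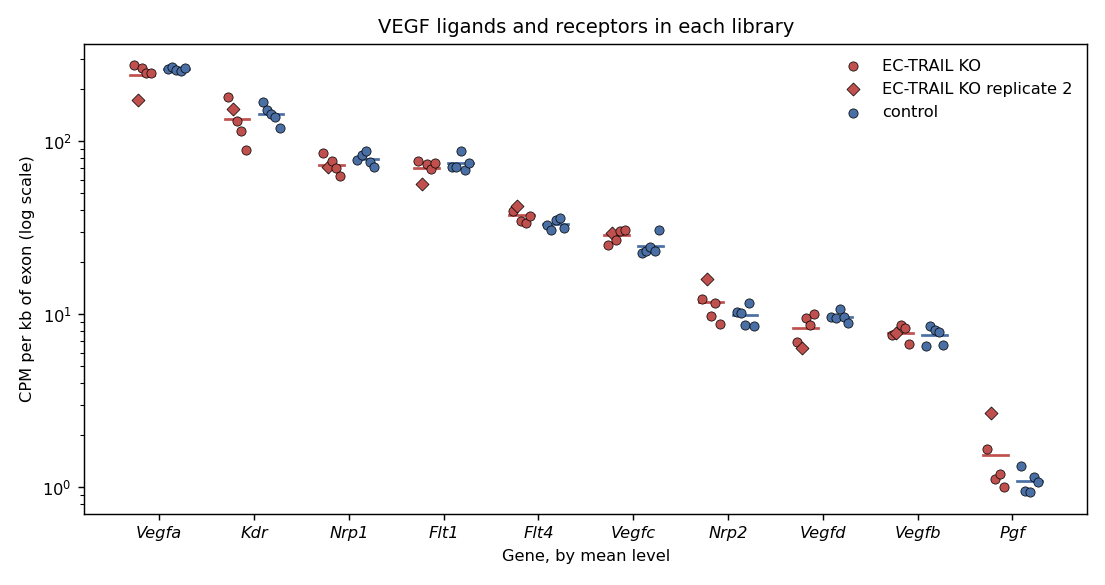
Level of each VEGF family gene in CPM per kb of exon on a log scale, with libraries labelled EC-TRAIL KO left of controls within each gene. Points are single libraries, bars are group means (n = 5 each), and the diamond is replicate 2 labelled EC-TRAIL KO. Vegfa and Kdr stand at the top and Pgf at the bottom in both groups.

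Nrp1 and Flt1 followed at nearly the same level per length. Nrp1 had 73.2 ± 8.26 CPM per kb in libraries labelled EC-TRAIL KO and 79.1 ± 6.39 in controls, and Flt1 had 70.2 ± 8.09 CPM per kb in libraries labelled EC-TRAIL KO and 74.4 ± 7.45 in controls. Nrp1 was above Flt1 in 8 of 10 libraries, and on this scale the ranges overlapped and the 2 genes do not differ beyond their spread. Flt4 had 37.3 ± 3.49 CPM per kb in libraries labelled EC-TRAIL KO and 33.1 ± 2.23 in controls. Vegfc was next with 28.5 ± 2.37 CPM per kb in libraries labelled EC-TRAIL KO and 24.8 ± 3.33 in controls. Flt4 was above Vegfc in 10 of 10 libraries, with ranges that overlapped.

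The lower part of the order held Nrp2, Vegfd, Vegfb and Pgf. Nrp2 had 11.7 ± 2.80 CPM per kb in libraries labelled EC-TRAIL KO and 9.87 ± 1.28 in controls. Vegfd had 8.30 ± 1.59 CPM per kb in libraries labelled EC-TRAIL KO and 9.67 ± 0.640 in controls, and Vegfb had 7.81 ± 0.720 in libraries labelled EC-TRAIL KO and 7.57 ± 0.899 in controls. Ranges of Nrp2 and Vegfd overlapped, as did those of Vegfd and Vegfb, with the order held in 7 and 8 of 10 libraries. Pgf was the lowest, with 1.53 ± 0.693 CPM per kb in libraries labelled EC-TRAIL KO and 1.09 ± 0.158 in controls, and with 88 to 235 expected counts per library. Mean levels kept the same order of the 10 genes when divided by the longest annotated transcript instead of all exons, but the gaps changed. Nrp1 was then above Flt1 in 10 of 10 libraries, with means of 204.4 and 141.6 CPM per kb, and stood beside Kdr, which exceeded it in 5 of 10 libraries. Vegfa was above Kdr in 9 of 10, the exception being replicate 2 labelled EC-TRAIL KO. Exons of 1 annotated gene, Mir1903, overlap those of a member, Nrp1, and its mean over the libraries was 0.044 CPM. Gene counts do not separate the isoforms of Vegfa, or the secreted from the membrane form of VEGFR-1.

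Among the ligands, Vegfa made up 83.7% ± 2.95 of the summed CPM per kb in libraries labelled EC-TRAIL KO and 85.8% ± 0.746 in controls (SD, n = 5 each). Vegfc was second with 10.1% ± 2.08 in libraries labelled EC-TRAIL KO and 8.13% ± 0.964 in controls. Among the receptor tyrosine kinases, Kdr held 54.7% ± 6.86 in libraries labelled EC-TRAIL KO and 57.2% ± 3.74 in controls. Flt1 held 29.6% ± 5.72 in libraries labelled EC-TRAIL KO and 29.6% ± 3.09 in controls. Flt4 held 15.6% ± 1.96 in libraries labelled EC-TRAIL KO and 13.2% ± 1.22 in controls.

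The bases before the starts of the most abundant ligand gene and of the receptor genes for VEGF-A are shown because Vegfa and Kdr had the highest levels and Flt1 is the other receptor gene for that ligand, and because promoters of Kdr and Flt1 are known to be bound by ETS factors, whose core motif is GGAA. The 250 bases before a RefSeq start (GRCm38.p6), for Vegfa the one nearest the annotated gene start of 2 starts listed, are printed 5′ to 3′ on the gene's strand, with capitals for GGAA and for TTCC, its match on the other strand.
Vegfa, chr17:46032378-46032627, minus strand: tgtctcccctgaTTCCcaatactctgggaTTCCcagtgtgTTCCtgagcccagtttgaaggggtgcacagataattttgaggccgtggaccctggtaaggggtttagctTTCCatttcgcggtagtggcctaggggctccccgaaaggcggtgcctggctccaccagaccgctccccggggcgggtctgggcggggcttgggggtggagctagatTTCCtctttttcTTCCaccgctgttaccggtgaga
Kdr, chr5:75978456-75978705, minus strand: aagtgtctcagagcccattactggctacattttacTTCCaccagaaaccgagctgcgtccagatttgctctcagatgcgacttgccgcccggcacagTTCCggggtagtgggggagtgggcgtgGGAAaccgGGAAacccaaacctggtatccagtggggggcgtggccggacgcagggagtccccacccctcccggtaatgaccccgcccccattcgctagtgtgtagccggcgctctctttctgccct
Flt1, chr5:147726012-147726261, minus strand: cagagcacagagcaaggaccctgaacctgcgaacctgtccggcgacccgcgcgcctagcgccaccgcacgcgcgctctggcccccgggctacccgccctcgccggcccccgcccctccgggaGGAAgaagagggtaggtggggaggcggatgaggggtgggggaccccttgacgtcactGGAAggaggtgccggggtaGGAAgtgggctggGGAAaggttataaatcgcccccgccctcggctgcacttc
The Vegfa stretch held 6 matches, that of Kdr 4 and that of Flt1 4, while the stretch before the second Vegfa start, which is not shown, held 2. At least 1 match occurred in 93.4% of 32851 RefSeq promoters, with a median of 3, so a match of these 4 letters is common. A match is a description of the sequence and not a binding site.

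No gene of the family passed the test between the groups. In edgeR's quasi-likelihood test with Benjamini-Hochberg adjustment over 17997 genes, 0 of 10 members passed at 0.05, where 0.439% of all tested genes were called, every one of them higher in libraries labelled EC-TRAIL KO. The count of 79 became 2 higher without replicate 4 labelled EC-TRAIL KO or without any 1 of the 5 controls, and 2 higher and 1 lower without replicate 3 labelled EC-TRAIL KO. It became 154 higher and 1 lower without replicate 1 labelled EC-TRAIL KO. The members called stayed at 0 of 10 in each case. At an unadjusted p under 0.05 there were 2 members, Vegfc and Flt4, against 5.13% of all tested genes. DESeq2 and limma-voom also called 0 of 10. Log2 fold changes of 5 members were above 0 and those of 5 below, with a median of -0.020, against -0.0085 over all tested genes. The groups overlapped in each of the 10 members, where 1.64% of tested genes had groups that did not overlap (1.38% with all libraries labelled EC-TRAIL KO higher, 0.261% with all lower).

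**Figure D2:**
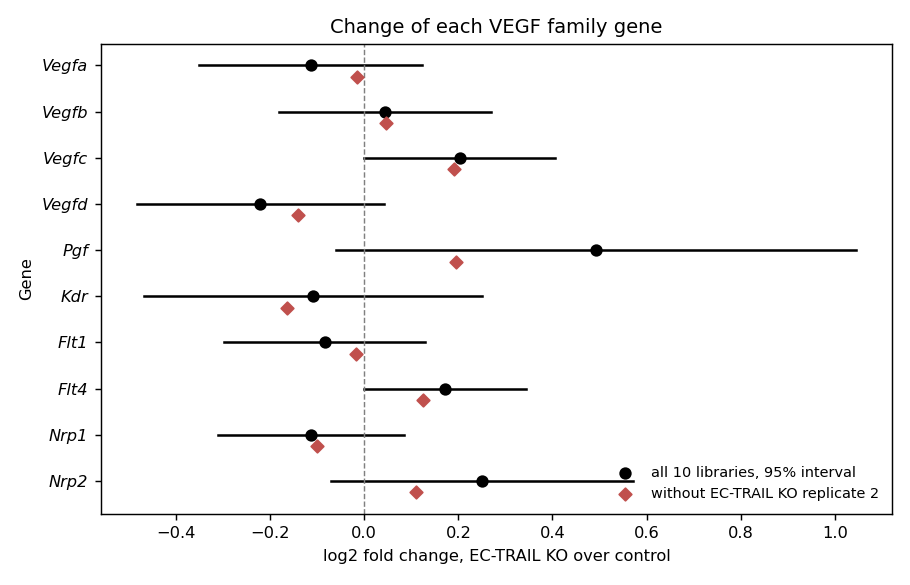
Log2 fold change of each VEGF family gene, libraries labelled EC-TRAIL KO over controls. Black points with bars are estimates and 95% intervals from all 10 libraries, and red diamonds are estimates without replicate 2 labelled EC-TRAIL KO. The intervals of 8 genes include 0, those of Vegfc and Flt4 start just above it, and the diamond of Pgf lies well below its black point.

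Vegfa (ENSMUSG00000023951, chromosome 17, 46016993 to 46032369, minus strand; all positions are GRCm38) had 1175, 743, 1128, 1067 and 1066 CPM in libraries labelled EC-TRAIL KO and 1126, 1151, 1099, 1087 and 1139.7 CPM in controls. The controls lay close together, and replicate 2 labelled EC-TRAIL KO was the lowest of the 10 libraries, far under the other 4 of its group. The fold was 0.924 (95% interval 0.784 to 1.09; log2 fold change -0.11, SE 0.109; edgeR adjusted p = 0.997; exact two-sided permutation p = 0.349). Without that replicate the log2 fold change was -0.015. The mean of the alveolar epithelial markers, among them the alveolar type I gene Ager, was also lowest there, at 8.00 log2 CPM, against 8.43 to 8.65 in the other 4 libraries labelled EC-TRAIL KO and 8.40 to 8.82 in controls. With this mean as a covariate, the log2 fold change of Vegfa was -0.038 (SE 0.093). It was nearly the same, -0.040 (SE 0.109), with the mean of fibroblast and pericyte markers as the covariate instead. Of the 14 alveolar markers, 0 passed, 13 had a log2 fold change below 0 and none was at 0 counts in all libraries. Over the 10 libraries Vegfa had a Pearson r of 0.77 and a Spearman rho of 0.39 with their mean, and an r of -0.22 without the 2 libraries farthest from its median, so the relation rests on those. With the same mean, r was -0.82 for Flt4 and -0.79 for Pgf, and -0.48 and -0.20 without those libraries. Other members went the other way without them. There r moved from -0.07 to 0.85 for Vegfc, from -0.29 to -0.55 for Kdr and from 0.10 to -0.58 for Nrp1.

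Vegfb (ENSMUSG00000024962, chromosome 19, 6982473 to 6987651, minus strand), a ligand of VEGFR-1, had 12.2, 12.5, 13.8, 13.3 and 10.8 CPM in libraries labelled EC-TRAIL KO and 10.5, 13.8, 12.97, 12.7 and 10.7 CPM in controls. The groups covered nearly the same range, and the fold was 1.03 (95% interval 0.882 to 1.21; log2 fold change 0.045, SE 0.104; edgeR adjusted p = 0.997). The sign of this difference turned without control replicate 1.

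Pgf (ENSMUSG00000004791, chromosome 12, 85166635 to 85177790, minus strand), the other ligand that binds VEGFR-1 alone among the receptor kinases, had the largest estimate and the widest interval. It had 4.84, 7.80, 3.23, 3.46 and 2.92 CPM in libraries labelled EC-TRAIL KO and 3.84, 2.77, 2.71, 3.32 and 3.14 CPM in controls. Replicates 2 and 1 labelled EC-TRAIL KO were above all controls, and the other 3 lay among them. The fold was 1.41 (95% interval 0.960 to 2.06; log2 fold change 0.49, SE 0.254; edgeR adjusted p = 0.997; exact two-sided permutation p = 0.190). Without replicate 2 the log2 fold change was 0.20.

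Vegfc (ENSMUSG00000031520, chromosome 8, 54077606 to 54187096, plus strand), which acts on VEGFR-3, had 61.9, 72.1, 65.7, 74.1 and 75.4 CPM in libraries labelled EC-TRAIL KO and 55.5, 56.6, 59.7, 56.7 and 75.04 CPM in controls. Control replicate 5 stood with the libraries labelled EC-TRAIL KO, and the other 4 controls lay below all of those. The fold was 1.15 (95% interval 1.00 to 1.32; log2 fold change 0.20, SE 0.0932; edgeR adjusted p = 0.974, unadjusted p = 0.0498; exact two-sided permutation p = 0.0794). Without control replicate 5 the log2 fold change was 0.29, the edgeR adjusted p was 0.284 and the exact p was 0.0159. Leaving out the only control that overlapped the other group favours a small p. The exact p also fell under 0.05, to 0.0476, without replicate 1 labelled EC-TRAIL KO, and was 0.0794 to 0.143 with any of the other 8 left out.

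Vegfd (ENSMUSG00000031380, chromosome X, 164373378 to 164402650, plus strand), the second ligand of VEGFR-3 and a gene known from lung fibroblasts, had 16.6, 15.4, 23.05, 20.8 and 24.1 CPM in libraries labelled EC-TRAIL KO and 23.3, 22.96, 25.7, 23.1 and 21.4 CPM in controls. Replicates 1, 2 and 4 labelled EC-TRAIL KO were below all controls, and replicates 3 and 5 were among them. The fold was 0.858 (95% interval 0.715 to 1.03; log2 fold change -0.22, SE 0.121; edgeR adjusted p = 0.997; exact two-sided permutation p = 0.159). With each library left out in turn, the exact p ran from 0.0238 without replicate 5 labelled EC-TRAIL KO to 0.286 without control replicate 3. Without replicate 2 labelled EC-TRAIL KO, the lowest library, the log2 fold change was -0.14 and the exact p 0.246.

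Vegfd was higher and Pgf lower in libraries with more fibroblast marker RNA. The mean of 12 fibroblast markers ran from 4.91 log2 CPM in replicate 2 and 5.19 in replicate 1 labelled EC-TRAIL KO to 5.73 in replicate 3 of that group, and was 5.42 to 5.70 in controls. Over the 10 libraries, Vegfd had a Pearson r of 0.93 and a Spearman rho of 0.71 with this mean. Pgf had an r of -0.93 and a rho of -0.76. Without replicates 1 and 2 labelled EC-TRAIL KO, the 2 libraries farthest from the median of the markers, r was 0.70 for Vegfd and -0.63 for Pgf. These are descriptions chosen from 20 such relations, each of the 10 genes with 2 marker means, and all values come from the same libraries. The 12 fibroblast markers summed to 966 to 1663 CPM in libraries labelled EC-TRAIL KO and 1341 to 1659.6 CPM in controls, 0 of 12 passed the edgeR test, 11 had a log2 fold change below 0, and none was at 0 counts in all libraries. With the mean of fibroblast and pericyte markers as a covariate, the log2 fold change was 0.074 for Pgf and -0.083 for Vegfd, both nearer 0. With the same covariate it was also nearer 0 for Nrp2, at 0.056, and farther from 0 for Kdr, at -0.29. With the alveolar marker mean as the covariate instead, the log2 fold change was 0.21 for Pgf and -0.17 for Vegfd, also nearer 0. The part of fibroblast RNA in these differences was not tested. Nrp2 had an r of -0.83 with the fibroblast mean, and -0.41 without those 2 libraries.

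**Figure D3:**
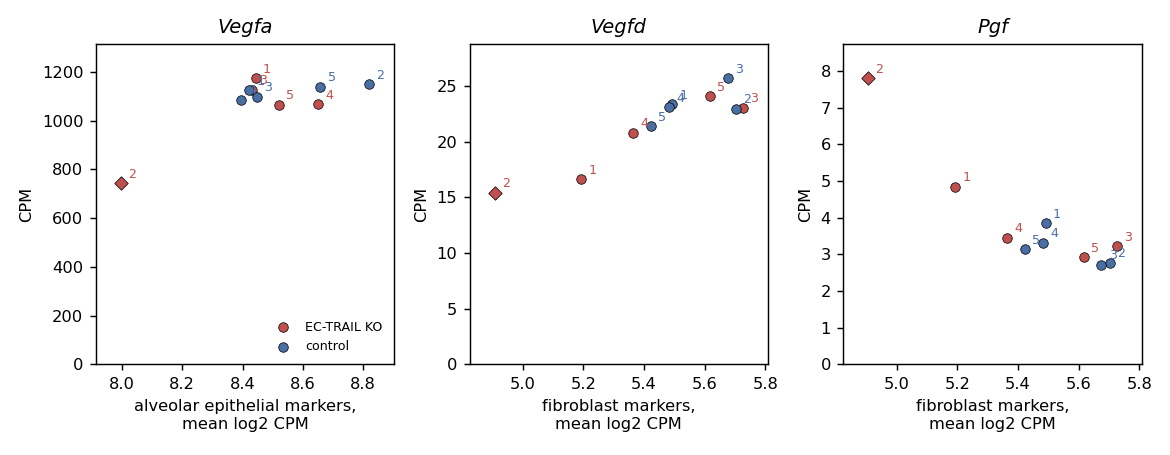
CPM of Vegfa against the mean log2 CPM of alveolar epithelial markers, and CPM of Vegfd and Pgf against that of fibroblast markers, 1 point per library numbered by replicate, with the diamond for replicate 2 labelled EC-TRAIL KO. Vegfa is lowest in that library and level in the others, Vegfd is higher and Pgf lower where fibroblast markers are higher.

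Kdr (ENSMUSG00000062960, chromosome 5, 75932827 to 75978458, minus strand) varied more within each group than between them. It had 1625, 1391, 1188, 1037 and 803 CPM in libraries labelled EC-TRAIL KO and 1522, 1369, 1300.3, 1241 and 1081 CPM in controls. The highest and the lowest of the 10 libraries, replicates 1 and 5, were both labelled EC-TRAIL KO and differed 2.02-fold. Values fell from replicate 1 to replicate 5 in both groups, though the labels name no batch. With the replicate number as a block, the log2 fold change was -0.14 (SE 0.0866, edgeR adjusted p = 0.723). The fold between the groups was 0.928 (95% interval 0.723 to 1.19; log2 fold change -0.11, SE 0.165; edgeR adjusted p = 0.997), and in the edgeR fit its sign turned without replicate 5 labelled EC-TRAIL KO.

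Flt1 (ENSMUSG00000029648, chromosome 5, 147561604 to 147726011, minus strand) had 1037, 766, 992, 930.0 and 1014 CPM in libraries labelled EC-TRAIL KO and 962, 954, 1177, 924 and 1006 CPM in controls. Replicate 2 labelled EC-TRAIL KO was below all other libraries, and the other 4 were within the control range. The fold was 0.943 (95% interval 0.813 to 1.09; log2 fold change -0.084, SE 0.0983; edgeR adjusted p = 0.997). The log2 fold change was -0.017 without replicate 2 labelled EC-TRAIL KO and -0.023 without control replicate 3, the highest library.

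Flt4 (ENSMUSG00000020357, chromosome 11, 49609263 to 49652739, plus strand) had 325, 346, 283, 277 and 304 CPM in libraries labelled EC-TRAIL KO and 268, 253, 287, 296 and 258 CPM in controls. Replicates 1, 2 and 5 labelled EC-TRAIL KO were above all controls, and replicates 3 and 4 were among them. The fold was 1.13 (95% interval 1.00 to 1.27; log2 fold change 0.17, SE 0.0789; edgeR adjusted p = 0.974, unadjusted p = 0.0498; exact two-sided permutation p = 0.0635). The exact p was 0.0476 without replicate 3 and 0.0397 without replicate 4 labelled EC-TRAIL KO, and 0.0476 without control replicate 4. With any of the other 7 libraries left out it was 0.0635 to 0.127. The log2 fold change was 0.11 with the alveolar marker mean as a covariate. The 7 lymphatic endothelial markers, which mark vessels where Flt4 is high, summed to 1472 to 1726 CPM in libraries labelled EC-TRAIL KO and 1221 to 1652 CPM in controls. Of these, 0 of 7 passed, 5 had a log2 fold change above 0, the median was 0.34 and none was at 0 counts in all libraries, and their part in the Flt4 values was not tested.

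The neuropilins had estimates of opposite sign, and neither passed. Nrp1 (ENSMUSG00000025810, chromosome 8, 128358604 to 128503363, plus strand) had 832, 693, 754, 680.4 and 619 CPM in libraries labelled EC-TRAIL KO and 764, 814, 855, 742 and 694 CPM in controls, with 3 libraries labelled EC-TRAIL KO below all controls. Its fold was 0.925 (95% interval 0.807 to 1.06; log2 fold change -0.11, SE 0.0907; edgeR adjusted p = 0.997). Nrp2 (ENSMUSG00000025969, chromosome 1, 62703285 to 62818695, plus strand), which binds VEGF-C and is high in venous and lymphatic endothelium, had 146, 190.4, 116, 138 and 105 CPM in libraries labelled EC-TRAIL KO and 123, 120.4, 102, 137 and 102 CPM in controls. Replicates 1, 2 and 4 labelled EC-TRAIL KO were above all controls and the other 2 among them. Its fold was 1.19 (95% interval 0.953 to 1.48; log2 fold change 0.25, SE 0.147; edgeR adjusted p = 0.997), and without replicate 2 the log2 fold change was 0.11.

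Ratios within a library do not depend on its depth. The ratio of Flt1 to Kdr, the decoy to the main signalling receptor, was 0.427, 0.368, 0.559, 0.600 and 0.844 per length in libraries labelled EC-TRAIL KO and 0.423, 0.466, 0.605, 0.498 and 0.623 in controls. Kdr was the higher in all 10 libraries per exon length and in 9 of 10 per longest transcript, where Flt1 was 1.08 times Kdr in replicate 5 labelled EC-TRAIL KO. Per exon length, the mean log2 ratio was -0.90 ± 0.464 in libraries labelled EC-TRAIL KO and -0.95 ± 0.241 in controls (SD, n = 5 each). The ratio of Nrp1 to Nrp2 was 6.90, 4.41, 7.85, 5.96 and 7.16 in libraries labelled EC-TRAIL KO and 7.54, 8.18, 10.1, 6.53 and 8.24 in controls. Its mean log2 ratio was 2.66 ± 0.325 in libraries labelled EC-TRAIL KO and 3.01 ± 0.230 in controls, and the groups overlapped. For Flt4 to Kdr the mean log2 ratio was -1.81 ± 0.338 in libraries labelled EC-TRAIL KO and -2.12 ± 0.206 in controls. For Vegfa to Vegfb it was 4.94 ± 0.292 in libraries labelled EC-TRAIL KO and 5.12 ± 0.184 in controls. Each ratio is given as a description, with no test.

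**Figure D4:**
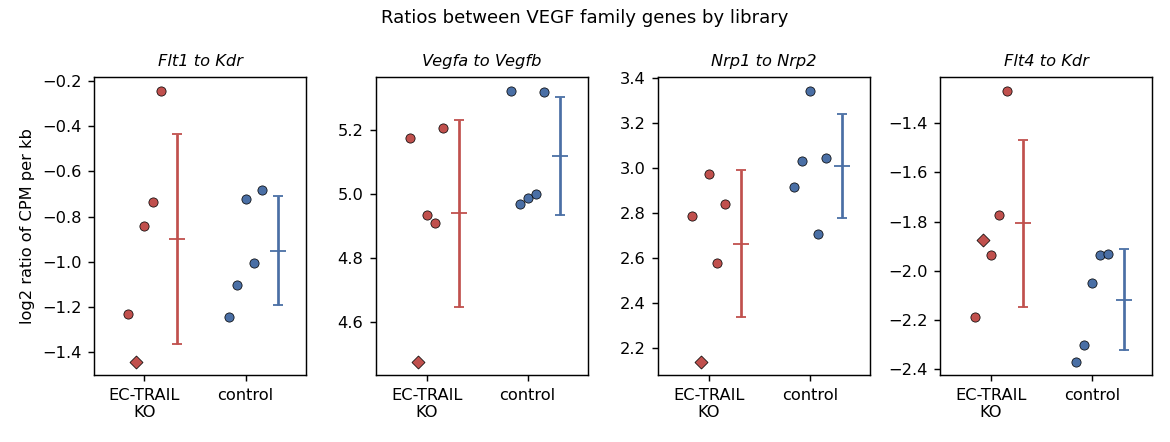
Log2 ratio of CPM per kb for 4 pairs of VEGF family genes in each library, libraries labelled EC-TRAIL KO left of controls. Points are libraries, the diamond is replicate 2 labelled EC-TRAIL KO, and bars are the mean and SD (n = 5 each). The groups overlap in each pair, and the diamond is the lowest point for Flt1 to Kdr, Vegfa to Vegfb and Nrp1 to Nrp2.

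Replicate 2 labelled EC-TRAIL KO stood apart in the family. It held the lowest value of the 10 libraries for Vegfa, Vegfd and Flt1 and the highest for Pgf, Flt4 and Nrp2, so it was an extreme for 6 of 10 members, against 33.2% of all tested genes. No other library was an extreme for more than 4 members, or for more than 26.5% of all tested genes. It was also the library with Tnfsf10 within the control range, with the lowest alveolar epithelial and fibroblast means, and with the highest mean of 10 proliferation markers (5.31 log2 CPM, against 3.08 to 4.47 in the other 4 libraries labelled EC-TRAIL KO and 1.66 to 2.61 in controls). The spread of the family was wider among libraries labelled EC-TRAIL KO than among controls for 8 of 10 members, against 57.5% of tested genes, and for 7 of 10 without replicate 2, against 53.5%. For Vegfa the coefficient of variation was 16.4% in libraries labelled EC-TRAIL KO, 4.73% among 4 of them without replicate 2, and 2.39% in controls. For Kdr it was 26.2% in libraries labelled EC-TRAIL KO, 29.8% among 4 of them without replicate 2, and 12.5% in controls.

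Genes around the family showed no called change either. In each of 6 lists, 0 genes passed the edgeR test, where 0.439% of all tested genes were called. DESeq2 and limma-voom also called 0. At most 1 gene per list had an unadjusted edgeR p under 0.05, against 5.13% of all tested genes. By DESeq2 it was at most 3. With the replicate number as a block in edgeR, 0 passed. An unadjusted p under 0.05 was then found for 8 of 22 VEGF-induced genes, against 1581 of 17997 tested genes. Such a p was also found for 4 of 29 VEGF receptor signalling genes, 4 of 12 class 3 semaphorins and plexins and 1 of 16 hypoxia genes. Of 29 genes of VEGF receptor signalling, the median log2 fold change was 0.00028, and the smallest p was that of Nos3, the endothelial nitric oxide synthase, with 130.5 ± 17.7 CPM in libraries labelled EC-TRAIL KO and 109 ± 6.30 CPM in controls (log2 fold change 0.26, edgeR adjusted p = 0.625). Map2k2, a MAP kinase kinase, was second (log2 fold change 0.13, edgeR adjusted p = 0.997). Of 22 tested genes that VEGF is known to induce in endothelial cells, among them Esm1, Dll4, Apln and Nr4a1, the median was 0.08. The basement membrane gene Nid2 had 23.9 ± 6.70 CPM in libraries labelled EC-TRAIL KO and 16.5 ± 2.26 CPM in controls (log2 fold change 0.53, edgeR adjusted p = 0.425), and Cd34, a sialomucin of capillaries and tip cells, had 408 ± 143 CPM in libraries labelled EC-TRAIL KO and 311 ± 28.4 CPM in controls (log2 fold change 0.39, edgeR adjusted p = 0.997).

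Class 3 semaphorins, which share the neuropilins with VEGF, and their plexin receptors had a median of 0.027 over 12 genes. Sema3d (log2 fold change 0.50, edgeR adjusted p = 0.957) and Sema3b (log2 fold change 0.29, edgeR adjusted p = 0.997) had the smallest p. The 12 genes of VEGF-C processing and lymphatic growth had a median of 0.016. Foxc2, a factor of lymphatic valves, had 2.32 ± 0.165 CPM in libraries labelled EC-TRAIL KO and 1.84 ± 0.157 CPM in controls (log2 fold change 0.34, edgeR adjusted p = 0.882), and Prox1, the lymphatic identity factor, had 34.8 ± 14.8 CPM in libraries labelled EC-TRAIL KO and 24.6 ± 4.14 CPM in controls (log2 fold change 0.50, edgeR adjusted p = 0.980). Hypoxia regulators and targets, 16 genes of the pathway that drives Vegfa transcription in low oxygen, had a median of -0.029, with Pdk1 (log2 fold change -0.16, edgeR adjusted p = 0.997) and Pgk1 (log2 fold change 0.13, edgeR adjusted p = 0.997) the smallest p. The 19 endothelial transcription factors had a median of 0.029 and a range of -0.10 to 0.16, with Foxo1 (log2 fold change -0.085, edgeR adjusted p = 0.997) and Etv6, of the ETS family (log2 fold change 0.16, edgeR adjusted p = 0.997), the smallest p.

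**Figure D5:**
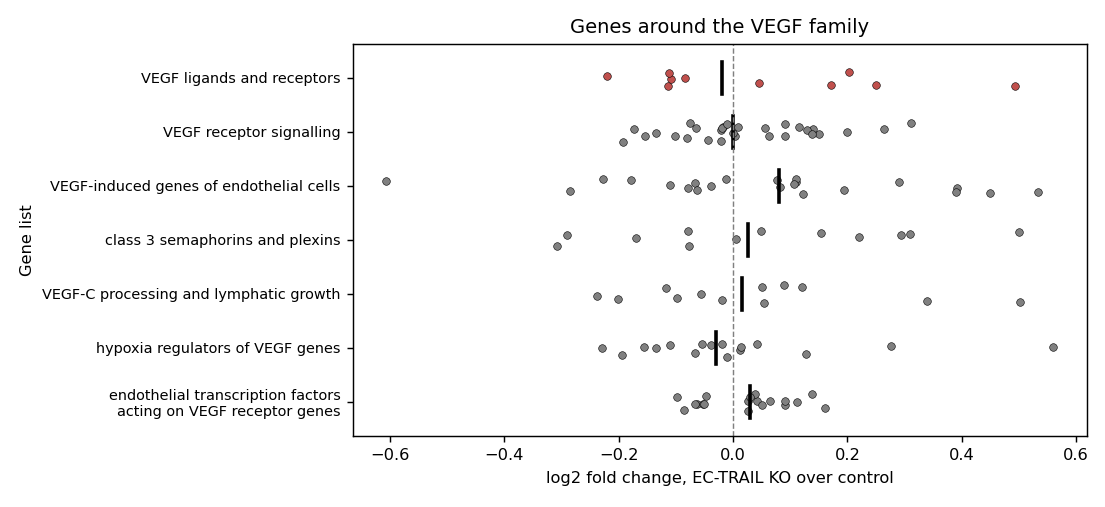
Log2 fold change, libraries labelled EC-TRAIL KO over controls, of the VEGF family (red) and of the tested genes of 6 lists around it (grey), 1 point per gene, with a bar at each median. Medians lie between -0.029 and 0.08, and the endothelial transcription factors have the narrowest spread.

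Markers of other cells and of vascular beds had, as median log2 fold changes, -0.14 for alveolar epithelium, -0.16 for fibroblasts, -0.17 for pericytes and smooth muscle, and 0.60 for mesothelium, whose 4 markers summed to at most 24.9 CPM in any library. Blood cell markers summed to at most 119.6 CPM for macrophages and monocytes, 2.01 CPM for neutrophils, 7.93 CPM for T, NK and B cells and 45.1 CPM for platelets and erythroid cells. Within the endothelium the medians were -0.054 for aerocytes, the capillary cells known for high Kdr, -0.067 for general capillaries, -0.07 for arteries and 0.061 for veins. No tested gene of these lists passed. Of the 10 proliferation markers, 8 rose and 2 did not pass, with a median of 2.24 (edgeR, adjusted over all genes). All 10 passed by DESeq2 and 0 by limma-voom. Of the 10, 7 passed without replicate 2, 0 without replicate 3 or 4, and all 10 without replicate 1 or 5 labelled EC-TRAIL KO. Without any 1 of the controls 0 passed, although the median stayed between 1.80 and 2.44 with each library left out.

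The genes most like each member were sought among 10782 protein-coding genes with a mean of at least 5 CPM, by the Pearson correlation of log2 CPM over the 10 libraries. Nearest to Vegfa were Fgf7 (r = 0.93, rho = 0.33) and Cyp4b1 (r = 0.90, rho = 0.77), and Fgf7 is a growth factor gene of fibroblasts. Among the genes nearest to Kdr was Rabggta (r = 0.93, rho = 0.93). Vegfd was nearest to Plxdc2 (r = 0.98, rho = 0.77) and Hsd11b1 (r = 0.97, rho = 0.93), and Pgf to Plcb1 (r = 0.98, rho = 0.99) and Rab3gap2 (r = 0.97, rho = 0.88). Nrp2 was nearest to Piezo2 (r = 0.97, rho = 0.93), a mechanically gated channel gene, and St6galnac4 (r = 0.96, rho = 0.92). For Flt1 the nearest were Dhdh (r = 0.93, rho = 0.76) and Marveld1 (r = 0.92, rho = 0.95), for Flt4 Rbck1 (r = 0.94, rho = 0.89) and Srgap2 (r = 0.91, rho = 0.87), and for Nrp1 Pphln1 (r = 0.94, rho = 0.95) and Slc25a35 (r = 0.92, rho = 0.89). Vegfb was nearest to Tmem106c (r = 0.96, rho = 0.90) and Clptm1l (r = 0.95, rho = 0.85), and Vegfc to Atp13a3 (r = 0.95, rho = 0.89) and Ramp3 (r = 0.91, rho = 0.88). With so many genes and 10 libraries, values this high describe these libraries and nothing more. Within the family, the highest r was 0.89, between Pgf and Nrp2, and the lowest -0.91, between Vegfd and Pgf.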

How the data were processed

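Poly-adenylated RNA of sorted lung endothelial cells was sequenced in 10 libraries after a stranded mRNA kit, per the labels' protocols. STAR 2.7.1a, RSEM 1.2.28 and the build GRCm38 are named in the submitters' processing notes. Values deposited by the authors are expected counts for each gene without normalization, and 81.2% of them are whole. Which annotation, filter or strand option the authors chose is not stated in these sources. Symbols, positions and exon lengths came from GENCODE M21 (GRCm38), in which 55144 identifiers matched and 241 did not.

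After rounding, expected counts went into edgeR 4.0.16 (R 4.3.3): filterByExpr with a minimum count of 10 (17997 genes kept), TMM scaling, quasi-likelihood F-test with group as the only term, and Benjamini-Hochberg adjustment over all tested genes at 0.05. CPM used TMM library sizes, and log2 CPM a prior count of 2. Standard errors are the log2 fold change divided by the square root of F, and 95% intervals use the test's degrees of freedom. Exact permutation tests on all 10 libraries used all 252 assignments, and their smallest p is 0.00794. Those with a library left out had fewer assignments and a larger smallest p. The code was tested on simulated data. Any 2 libraries differed by a chi-square of at least 20.6 per degree of freedom, far above sampling noise.

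Alternatives were RLE factors, library size only, DESeq2 1.42.0, limma-voom 3.58.1 with and without quality weights, 2 other filters, the replicate number as a block, 2 marker covariates, thinning to the smallest total and each library left out. The legacy=TRUE estimation is the default of this edgeR version, and legacy=FALSE was added after seeing the data. Named genes are all 10 members, up to 2 genes per pathway list with the smallest p, and the 2 most like genes per member, of which 1 is not reported here. Members and lists were chosen with earlier results of these data known. Relations with marker means and the count of extremes were chosen after seeing the values.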

Additional observations from a re-analysis of the deposited data

Results flagged for a closer look

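In groups of 5 libraries, a library was singled out where its gap to the nearest other exceeded 0.71 of the group's range. This was met in 2 of 30 groups of values tested, and chance alone flags about 5% of groups. Vegfa was 743 CPM in replicate 2 labelled EC-TRAIL KO, with a gap of 0.748 of the range, while the other 4 libraries of that group had 1066 to 1175 CPM. Vegfc was 75.04 CPM in control replicate 5, with a gap of 0.786 of the range, while the other 4 controls had 55.5 to 59.7 CPM.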

How the results depend on the processing

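In all 22 alternatives 0 of 10 members passed, and the lowest adjusted p of a member was 0.284 (Vegfc without control replicate 5). Log2 fold changes kept their sign except 2 near 0, with each library left out in turn: Vegfb ranged from -0.0029 to 0.094, its lowest without control replicate 1 (mean log2 difference in the exact test from -0.00046 to 0.0998), and Kdr ranged from -0.24 to 0.0079, its highest without replicate 5 labelled EC-TRAIL KO. Without replicate 2 of that group Tnfsf10 passed at -1.21 (edgeR adjusted p = 0.0345), and with the fibroblast and pericyte covariate at -1.43 (edgeR adjusted p = 0.0182). It did not pass in the other 20 of the 22 alternatives. With the longest transcript, levels were 312.4 CPM per kb for Vegfa, 211.96 for Kdr, 204.4 for Nrp1, 141.6 for Flt1, 46.3 for Flt4, 19.04 for Nrp2, 10.6 for Vegfd and 9.63 for Vegfb; such levels depend on the length used. The calls over all genes ranged from 1 (alveolar covariate) to 208 higher and 3 lower (DESeq2), against 79, with 2 under limma-voom or scaling by library size alone. With the replicate number as a block, 146 were higher and 3 lower, none of them a member, and Kdr had -0.14 (SE 0.0866, edgeR adjusted p = 0.723). Deviations of same-numbered libraries correlated at 0.068 to 0.433, and 4 of 5 libraries labelled EC-TRAIL KO matched their own number best, a hint from the data and not from the design. Depth limits Pgf, with 88 to 235 expected counts per library.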
